A study of Homo sapiens with 32 samples.

Results

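The 41 genes described here encode the proteins that license replication origins, unwind and copy DNA and make deoxynucleotides, together with the transcription factors E2F1 and E2F2 and the cyclin E genes CCNE1 and CCNE2. They were taken by gene symbol from the 62703 gene identifiers of the read count tables, and all 41 were found in each table. Their symbols fell into 7 roles, which were 12 helicase genes, 6 licensing genes, 6 clamp and clamp loader genes, 5 polymerase and primase genes, 4 genes of DNA strand processing, 4 genes of nucleotide synthesis and 4 genes of the E2F and cyclin E step. The cells were HEK293T, an established human embryonic kidney line that carries the SV40 large T antigen and adenoviral E1A, both of which bind RB family proteins. Each knockout of IGF2BP1, IGF2BP2 or IGF2BP3 was 1 clone grown from a sorted cell after transient transfection with plasmids that held guide RNAs and a fluorescent reporter. The control cells received a non-targeting guide RNA in parallel. Poly(A) libraries of total, nuclear and cytoplasmic RNA were made from each genotype. Each RNA kind had 4 control libraries and 2 libraries per knockout, except for 4 cytoplasmic libraries of the IGF2BP3 knockout. Because each knockout was 1 clone, the effect of the edited gene and of that clone cannot be told apart, and p-values measure the spread between libraries of the clone.

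Before DNA is copied, the origin recognition complex (ORC), CDC6 and CDT1 load the ring of MCM2 to MCM7 onto DNA in G1 phase, and geminin (GMNN) blocks CDT1 once S phase has begun. CDC45 and the GINS complex then turn the ring into the active helicase, with MCM10 as a further activator. Most genes of this machinery are transcribed by E2F factors after cyclin E and its kinase have inactivated RB, so their mRNAs rise together at the entry into S phase. IGF2BP proteins bind mRNAs in the cytoplasm and are known for stabilizing many of them. In bulk RNA a smaller share of cells in S phase and less mRNA per cell cannot be told apart.

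Library depth ranged from 13689067 to 26119480 counts. The IGF2BP1 knockout libraries shared batches 1 and 2 of the labels with control replicates 1 and 2, and the IGF2BP2 and IGF2BP3 knockouts shared batches 3 and 4 with control replicates 3 and 4. Replicates 3 and 4 of the cytoplasmic IGF2BP3 knockout came from batch 5, for which there was no control, so the fold changes of that group rest on replicates 1 and 2. The library labelled total RNA, IGF2BP1 knockout, replicate 2 and the library labelled nuclear RNA, IGF2BP1 knockout, replicate 1 held the same count at all 62703 identifiers. Its RNA kind is therefore not known. Total and nuclear values of that knockout include it, and values without it are given where the call differs. Levels of a gene in a library are given as CPM, counts scaled to library size and by the trimmed mean of M values (TMM). Sums over several genes and levels per kilobase of exon are CPM scaled to library size only. The targeted genes followed the labels in cytoplasmic RNA. IGF2BP1 read 22.4 and 22.1 CPM in its knockout against 358 to 435 in the control. IGF2BP2 read 34.3 and 36.0 against 84.3 to 89.4, and IGF2BP3 read 25.1 to 30.6 against 68.4 to 74.9. The other family members also differed from the control. IGF2BP1 read 231 and 236 without IGF2BP2 and 229 to 291 without IGF2BP3 (-0.63 ± 0.04 and -0.65 ± 0.04 on the log2 scale), and IGF2BP3 read 46.9 and 47.6 without IGF2BP2 (-0.54 ± 0.05) and 90.3 and 87.6 without IGF2BP1 (0.31 ± 0.05). IGF2BP2 changed by -0.31 ± 0.05 in the IGF2BP3 knockout. Their part in the members' changes was not tested. The HEK293 cell markers PAX2, NEFL, NEFM, VIM, KRT8, KRT18 and LIN28B were detected in every library, while 6 haematopoietic markers summed to at most 1.19 CPM in a library, with GATA1 at 0 counts throughout.

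The promoters of these genes are shown because the shared E2F sequence is found in most of them. RefSeq windows on GRCh38.p14, from 250 bases before to 50 bases after a transcription start, held a sequence for 36 of the 41 genes, with no window for MCM4, MCM5, GINS4, RPA2 and CCNE2. An E2F sequence (TTCCCGC or TTGGCGC or TTCGCGC or TTGCCGC) was present on either strand in 29 of the 36 (80.6%), against 15.3% of 27305 genes with a window, 54.8% of 31 other replication genes and 60% of 15 checkpoint and repair genes. CCAAT was present in 63.9% of the 36 against 39.7% of all genes, 66.7% of the checkpoint and repair genes and 81.8% of 22 mitotic genes. The cell cycle homology region of mitotic genes, TTTGAA or TTCGAA, was present in 5.56% of the 36 against 19.5% of all genes and 81.8% of the mitotic genes. The 180 bases upstream of the start are printed for the 2 genes with matches that fell most in the IGF2BP3 knockout (MCM6 and ORC1), for the 2 E2F genes that rose, and for ORC2, which fell strongly and had no match. Capitals mark the E2F letters, and runs longer than a motif are overlapping matches on both strands.
MCM6: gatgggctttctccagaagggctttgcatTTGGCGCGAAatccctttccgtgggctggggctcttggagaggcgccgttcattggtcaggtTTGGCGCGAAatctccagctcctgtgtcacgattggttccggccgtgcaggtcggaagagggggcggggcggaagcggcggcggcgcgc
ORC1: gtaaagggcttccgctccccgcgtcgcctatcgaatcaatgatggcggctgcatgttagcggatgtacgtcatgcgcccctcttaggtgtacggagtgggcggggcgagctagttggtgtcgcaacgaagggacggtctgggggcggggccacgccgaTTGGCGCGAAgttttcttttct
E2F1: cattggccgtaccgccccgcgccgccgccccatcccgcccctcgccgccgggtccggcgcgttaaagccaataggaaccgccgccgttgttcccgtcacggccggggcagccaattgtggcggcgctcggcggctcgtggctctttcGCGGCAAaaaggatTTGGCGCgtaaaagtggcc
E2F2: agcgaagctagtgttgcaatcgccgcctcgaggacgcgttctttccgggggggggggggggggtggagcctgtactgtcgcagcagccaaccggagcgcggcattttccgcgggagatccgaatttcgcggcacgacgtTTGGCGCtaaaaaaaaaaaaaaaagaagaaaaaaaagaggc
ORC2: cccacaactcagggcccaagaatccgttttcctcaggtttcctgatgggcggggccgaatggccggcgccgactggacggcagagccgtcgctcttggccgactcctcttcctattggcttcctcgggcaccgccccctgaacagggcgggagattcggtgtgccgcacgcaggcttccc
These stretches lie on the minus strand of GRCh38.p14, at chr2:135876444-135876623 for MCM6, chr1:52404424-52404603 for ORC1, chr20:33686386-33686565 for E2F1, chr1:23531234-23531413 for E2F2 and chr2:200963661-200963840 for ORC2. MCM6 held 4 matches in 2 runs, the nearer of them starting 89 bases before the transcription start, and ORC1 held 2 overlapping matches that started 22 bases before it. Genes with and without the letters were both mostly lower. In cytoplasmic RNA of both the IGF2BP2 and the IGF2BP3 knockout, 21 of 29 genes with a match and 6 of 7 genes with none were called lower. Of all genes tested, 33.2% were called lower in each of these knockouts. The median log2 change with a match and with none was -0.26 and -0.58 in the IGF2BP2 knockout. In the IGF2BP3 knockout it was -0.43 and -0.78.

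In control cells the levels of the genes, compared between genes as CPM per kilobase of exon in total RNA, spanned a wide range. PCNA, the sliding clamp, was highest at 208 ± 12.6 (SD, n = 4), followed by MCM7 at 146 ± 3.46, MCM3 at 118 ± 8.49 and MCM2 at 97.2 ± 10.1. POLA2, the regulatory subunit of DNA polymerase alpha, was lowest at 4.07 ± 0.156, below CCNE2 at 6.20 ± 1.16 and GINS3 at 8.60 ± 0.690. The values of PCNA, MCM7 and MCM3 did not overlap between libraries, whereas many neighbours lower in the order did, such as CDC45 at 49.5 ± 5.17, RFC2 at 49.5 ± 2.76 and RPA1 at 49.3 ± 0.715. Among the 6 genes of the MCM ring, which assembles with equal numbers of each subunit, MCM5 was lowest per exon kilobase at 38.7 ± 4.00. It also had the longest exon length of them, 7338 bases against 4118 for MCM6 and 3650 for MCM3. These lengths join all annotated exons of a gene, used or not. The order of the genes, also the place of POLA2, therefore depends on them.

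**Figure D1:**
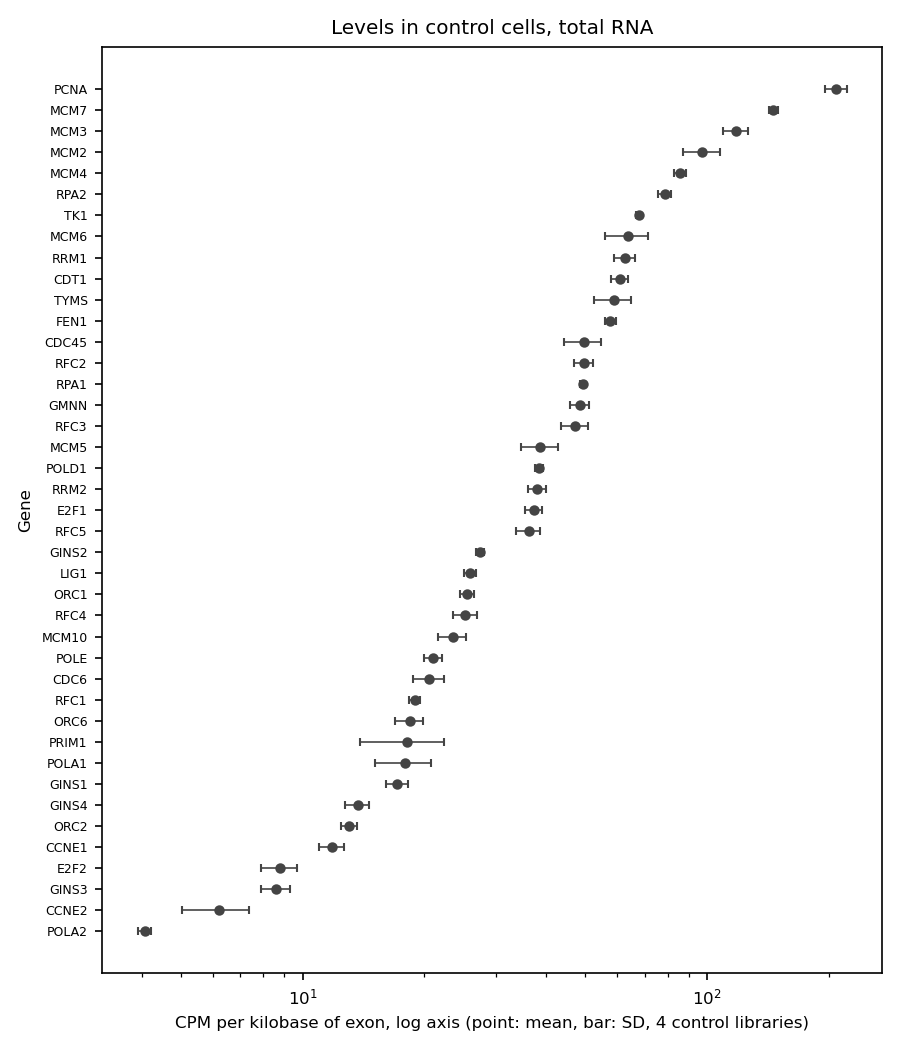
Level of each of the 41 genes in control cells, total RNA, as CPM per kilobase of exon on a log axis, with the mean and SD of 4 libraries. PCNA is highest at 208 and POLA2 lowest at 4.07.

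Between the fractions of control cells, 15 of the 41 genes were higher and 10 were lower in nuclear than in cytoplasmic RNA (edgeR quasi-likelihood test, adjusted p under 0.05). Of all genes tested 65.9% were called, 32.6% higher and 33.3% lower. All 5 polymerase and primase genes were among the 15 higher members. The log2 ratio of nuclear over cytoplasmic RNA was 1.29 ± 0.07 (SE) for POLE, 0.92 ± 0.07 for the ligase gene LIG1 and 0.68 ± 0.07 for POLD1. CDT1 leaned most to the cytoplasm at -0.59 ± 0.07, with GINS2 at -0.50 ± 0.07 and TYMS at -0.45 ± 0.07. Leaving out 1 library at a time gave 19 to 26 called genes. The mRNAs of 8 cytoplasmic marker genes had mean sums of 14506 CPM in nuclear and 18437 CPM in cytoplasmic RNA of the control. The log2 ratios of the nuclear RNAs MALAT1, NEAT1 and KCNQ1OT1 were 2.15, 0.69 and 2.39. The members' ratios compare shares of each library, and the purity of the fractions was not tested.

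Loss of IGF2BP2 and loss of IGF2BP3 each came with lower levels of most of the 41 genes, most clearly in cytoplasmic RNA, while the IGF2BP1 knockout showed changes in both directions. In cytoplasmic RNA of the IGF2BP2 knockout 30 genes were called lower and 7 higher, with a median log2 change of -0.31, where 64.2% of all genes were called and 33.2% were called lower. In the IGF2BP3 knockout 31 were lower and 5 higher, with a median of -0.43, where 64.7% of all genes were called and 33.2% were called lower. In the IGF2BP1 knockout 15 were lower and 7 higher, with a median of -0.01, where 44.4% of all genes were called and 21.9% were called lower. The median over all genes was between 0.01 and 0.02 in these 3 comparisons. The knockouts of IGF2BP2 and IGF2BP3 were compared with the same control libraries. Upper quartile scaling raised the median of all genes to 0.16 and 0.19 in these knockouts and changed the calls to 23 lower and 10 higher, and to 25 lower and 8 higher. Relative to the median of all genes the members' median was -0.33 and -0.46 as tested and -0.32 and -0.46 with that scaling. For the IGF2BP1 knockout the count of 22 called genes went to 14 without control replicate 1 or without IGF2BP1 knockout replicate 1, and to 10 (8 lower, 2 higher) without the batch term.

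In total RNA the IGF2BP2 knockout had 21 of 41 genes lower and 3 higher (median -0.26) and the IGF2BP3 knockout 24 lower and 2 higher (median -0.31), where 47% and 46.9% of all genes were called. The IGF2BP1 knockout had 4 lower and 8 higher (median 0.10), where 24.2% of all genes were called. With upper quartile scaling the splits were 17 lower and 8 higher, 19 lower and 5 higher, and 3 lower and 12 higher, in that order, with the median of all genes at 0.12, 0.15 and 0.06. The 24 calls of the IGF2BP2 knockout went to 15 without its replicate 2, and the 26 of the IGF2BP3 knockout to 17 without its replicate 1. The 12 calls of the IGF2BP1 knockout rested on single libraries: they went to 22 without control replicate 1 or IGF2BP1 knockout replicate 1, to 7 without control replicate 3, control replicate 4 or IGF2BP3 knockout replicate 1, to 6 without IGF2BP3 knockout replicate 2, and to 5 without either IGF2BP2 knockout library. Without its library that was also deposited as nuclear RNA the count was 8, with 4 in each direction.

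In nuclear RNA the IGF2BP2 knockout had 16 genes lower and 8 higher (median -0.13), the IGF2BP3 knockout 17 lower and 5 higher (median -0.16) and the IGF2BP1 knockout 5 lower and 1 higher (median -0.01). Of all genes 49.7%, 50.4% and 25.7% were called in these comparisons. The 24 calls of the IGF2BP2 knockout went to 13 without control replicate 3. With upper quartile scaling the IGF2BP3 knockout had 14 lower and 7 higher and the IGF2BP1 knockout 5 lower and 2 higher. Without the library that was also deposited as total RNA the IGF2BP1 knockout again had 6 calls, with 3 in each direction. RNA of 8 mitochondrial genes summed to 28795 and 30457 CPM in nuclear RNA of the IGF2BP3 knockout against 15086 to 17942 in the control, and all 8 were called higher there. Its part in the nuclear values was not tested.

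Genes called in the same direction in all 3 RNA kinds numbered 14 lower and 3 higher in the IGF2BP2 knockout, where 16.2% and 15.8% of 17587 genes tested in every kind were so called. In the IGF2BP3 knockout 17 were lower and 1 was higher, where 18% and 17.1% of all genes were so called. In the IGF2BP1 knockout 3 were lower (RPA1, MCM10 and ORC1) and 1 was higher (CCNE2), where 6.6% and 4.22% of all genes were so called. The total and nuclear groups of that knockout shared 1 library, so these counts and shares do not rest on separate data. The nuclear call of ORC1 rested on that library.

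**Figure D2:**
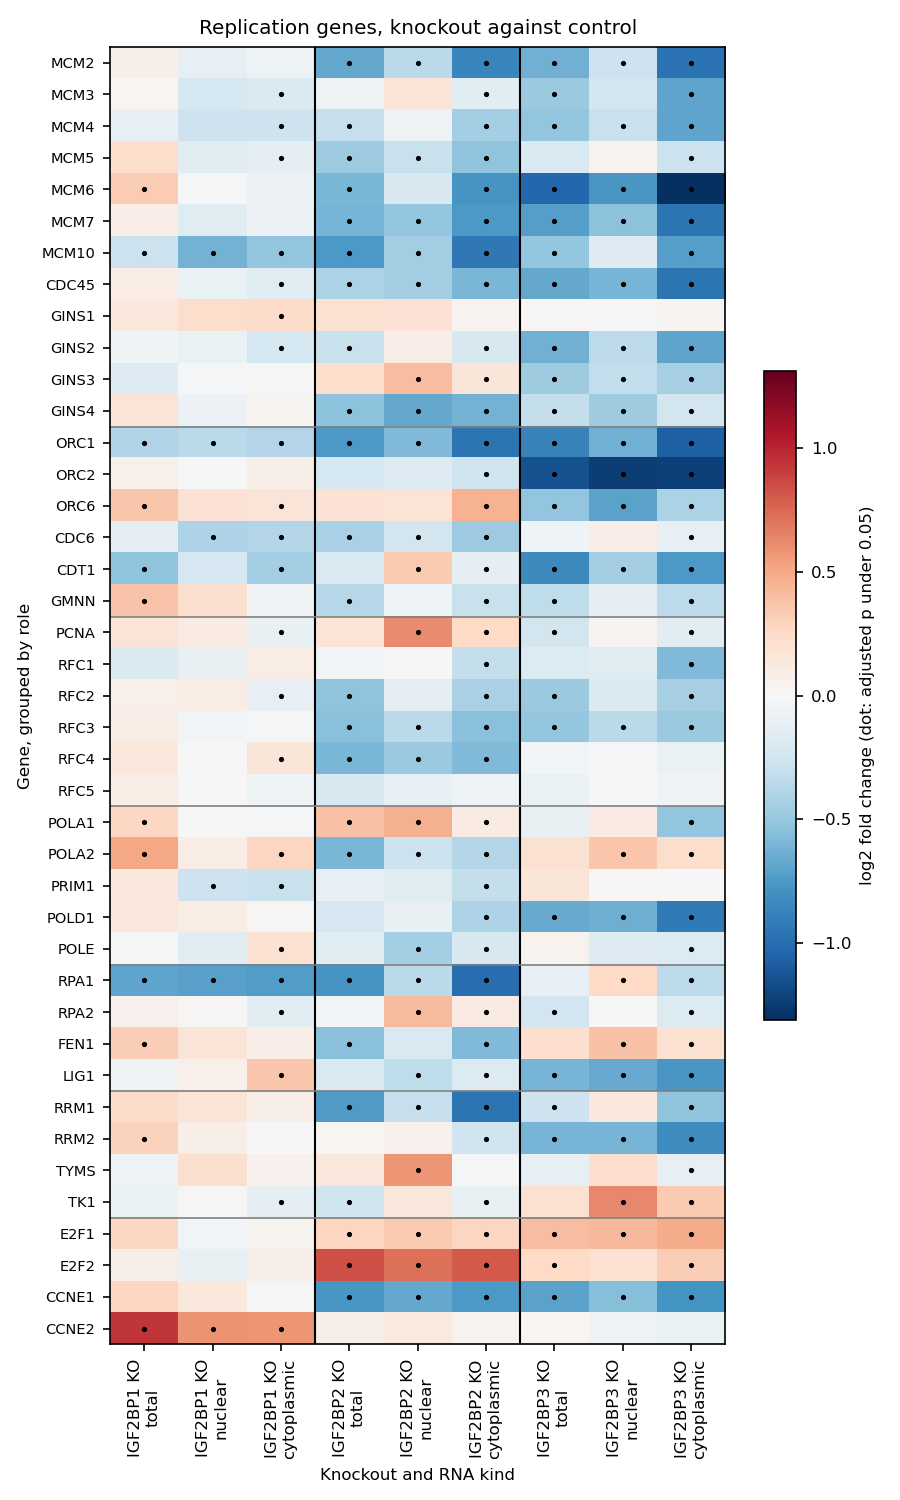
Log2 fold change of each gene in each knockout against control, with 3 columns of RNA kinds (total, nuclear, cytoplasmic) per knockout and genes grouped by role. Dots mark adjusted p under 0.05; the columns of the IGF2BP2 and IGF2BP3 knockouts are mostly blue, with 30 and 31 genes lower in cytoplasmic RNA, while E2F1 and E2F2 are red.

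Changes given without an RNA kind are those of cytoplasmic RNA. Licensing genes fell in all but 1 of 12 tests in cytoplasmic RNA of the IGF2BP2 and IGF2BP3 knockouts. The exception was ORC6 in the IGF2BP2 knockout. Of all genes tested, 33.2% were called lower in each of these knockouts. CDC6 in the IGF2BP3 and CDT1 in the IGF2BP2 knockout had the opposite sign with upper quartile scaling or without the batch term. ORC1, the largest subunit of the origin recognition complex (chr1:52372829-52404459, minus strand, GENCODE 29 on GRCh38), was lower in every knockout. Its cytoplasmic level, in CPM scaled by the trimmed mean of M values (TMM), was 81.9, 75.5, 75.3 and 77.2 in control replicates 1 to 4, 60.1 and 60.6 without IGF2BP1 (in its knockout), 39.0 and 39.6 without IGF2BP2 and 36.2, 36.6, 38.8 and 40.6 without IGF2BP3. No knockout library reached the lowest control library. The log2 changes were -0.38 ± 0.05 (SE), -0.95 ± 0.05 and -1.07 ± 0.05, with edgeR adjusted p of 2.1e-07, 9.1e-17 and 4.5e-18. In total RNA they were -0.40, -0.75 and -0.87 and in nuclear RNA -0.35, -0.58 and -0.63, all called. Without the library deposited under both labels the nuclear value of the IGF2BP1 knockout was -0.13 with an edgeR adjusted p of 0.434, so that call rested on it. Of the 20 tested genes nearest to ORC1 on its chromosome, 10 on each side, 11 were called lower and 2 higher in cytoplasmic RNA of the IGF2BP3 knockout, with a median of -0.21.

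ORC2, which stays on chromatin with the rest of the origin complex (chr2:200908973-200963680, minus strand), fell more in the IGF2BP3 knockout than in either other knockout (differences of -1.30 ± 0.08 and -0.96 ± 0.06). Its cytoplasmic level was 88.5, 82.8, 82.1 and 71.0 CPM in the control, 91.2 and 89.5 without IGF2BP1, 62.7 and 64.9 without IGF2BP2 and 33.9, 31.7, 43.4 and 43.2 without IGF2BP3. The last 4 libraries lay below all others, and those of batch 5 lay between batches 3 and 4 and the remaining groups. The log2 change was -1.22 ± 0.06 in the IGF2BP3 knockout (edgeR adjusted p 7.8e-19) and -0.26 ± 0.05 in the IGF2BP2 knockout. The total and nuclear values of the IGF2BP3 knockout were -1.15 and -1.24, so the fall had about the same size in every fraction. With log2(FPKM + 1) in limma the cytoplasmic change was -0.57, a scale that understates the change of genes with low values. Among the 20 neighbours of ORC2, 13 were called lower in that knockout, with a median of -0.42, and their part in the value was not tested.

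ORC6, a small ORC subunit (chr16:46689643-46698394, plus strand), changed in opposite directions. It read 77.2, 79.8, 81.1 and 79.9 CPM in the control, 88.5 and 87.9 without IGF2BP1, 109 and 111 without IGF2BP2 and 60.2, 60.6, 70.6 and 69.2 without IGF2BP3, all in cytoplasmic RNA. None of the knockout groups overlapped the control. The changes were 0.17 ± 0.05, 0.45 ± 0.05 and -0.41 ± 0.05. Of its 20 neighbours 11 were lower in the IGF2BP3 knockout, with a median of -0.51. CDC6, which recruits the MCM ring, was lower in the IGF2BP1 and IGF2BP2 knockouts (-0.38 and -0.48) and near the control in the IGF2BP3 knockout (-0.11, with upper quartile scaling 0.06). CDC6 lies on chromosome 17, as does the edited gene IGF2BP1. In the IGF2BP1 knockout 13 of the 20 neighbours of CDC6 were also called lower and none higher, with a median of -0.61. Their part in the CDC6 value was not tested. CDT1, the partner of CDC6, was lower in the IGF2BP1 and IGF2BP3 knockouts (-0.45 and -0.75). Its value of -0.12 in the IGF2BP2 knockout turned to 0.03 with upper quartile scaling, and in nuclear RNA of the same knockout it was called higher (0.35, edgeR adjusted p 0.00311). GMNN, the inhibitor of CDT1, was lower in the IGF2BP2 and IGF2BP3 knockouts (-0.29 and -0.34).

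Of the helicase genes, 10 of 12 were lower in the cytoplasm after loss of IGF2BP2 and 11 of 12 after loss of IGF2BP3, with medians of -0.56 and -0.69. Of all genes tested, 33.2% were called lower in each of these knockouts. All 6 genes of the MCM ring were called lower in both, with medians of -0.64 and -0.83; of these, MCM3 in the IGF2BP2 knockout was at -0.15 and at 0.00 with upper quartile scaling. MCM6 (chr2:135839626-135876426, minus strand) fell most in the IGF2BP3 knockout. It read 283, 286, 296 and 273 CPM in the control, 278 and 263 without IGF2BP1, 163 and 169 without IGF2BP2 and 113, 116, 142 and 155 without IGF2BP3. The order was thus control and IGF2BP1 knockout, which overlapped, then the IGF2BP2 knockout, then the IGF2BP3 knockout. The log2 changes were -0.78 ± 0.04 and -1.31 ± 0.05 in the IGF2BP2 and IGF2BP3 knockouts, with edgeR adjusted p of 9.5e-17 and 1.5e-22. In the IGF2BP3 knockout the total and nuclear values were -1.03 and -0.76. Among the 20 neighbours of MCM6, 10 were called lower and 4 higher in that knockout, with a median of -0.46.

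MCM2 (chr3:127598223-127622436, plus strand) was at 449, 438, 463 and 469 CPM in cytoplasmic RNA of the control and at 420 and 426 in the IGF2BP1 knockout. It was at 262 and 254 in the IGF2BP2 knockout and at 238, 239, 244 and 257 in the IGF2BP3 knockout. The latter groups overlapped each other and lay far below the control, with log2 changes of -0.85 ± 0.04 and -0.97 ± 0.04. In nuclear RNA MCM2 moved less, by -0.35 and -0.27, and the latter call was lost in 9 of the alternative fits. MCM7, the most abundant ring gene, changed by -0.75 and -0.96, MCM4 by -0.44 and -0.69, MCM5 by -0.52 and -0.28 and MCM3 by -0.15 and -0.69. CDC45 changed by -0.60 and -0.96. The GINS genes did not move as a unit: GINS4 was lower in both knockouts (-0.62 and -0.24), GINS2 likewise (-0.21 and -0.69), GINS3 was higher in the IGF2BP2 knockout and lower in the IGF2BP3 knockout (0.16 and -0.44), and GINS1 was not called in either (0.05 and 0.03).

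MCM10 (chr10:13161554-13211104, plus strand) was lower in cytoplasmic and total RNA of all knockouts, and in nuclear RNA of the IGF2BP3 knockout it was not called (-0.16, edgeR adjusted p 0.156). Its cytoplasmic levels were 146, 136, 128 and 122 CPM in the control, 97.9 and 98.4 without IGF2BP1, 63.3 and 67.5 without IGF2BP2 and 75.4, 76.7, 95.5 and 96.1 without IGF2BP3. No knockout library overlapped the control. The changes were -0.52 ± 0.05, -0.94 ± 0.05 and -0.72 ± 0.05. The genes around MCM10 were also lower, with 15, 16 and 12 of 20 called lower in the IGF2BP1, IGF2BP2 and IGF2BP3 knockouts and medians of -0.44, -0.48 and -0.26. Their part in the MCM10 values was not tested. In total RNA of the IGF2BP1 knockout the change was -0.28 with an edgeR adjusted p of 0.035, and this call was lost in 13 alternative fits.

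Clamp and clamp loader genes were less uniform. PCNA was higher in cytoplasmic RNA of the IGF2BP2 knockout, at 465 and 475 CPM against 357 to 402 in the control (0.26 ± 0.04), and rose by 0.62 in its nuclear RNA. In the IGF2BP3 knockout PCNA was called lower at -0.15, which became 0.02 with upper quartile scaling. Of the clamp loader genes, RFC2 and RFC3 were lower in both knockouts (-0.43 and -0.54 in the IGF2BP2 knockout, -0.43 and -0.49 in the IGF2BP3 knockout). RFC4 was lower in the IGF2BP2 knockout (-0.58) and not called in the IGF2BP3 knockout (-0.09), and the difference of 0.49 ± 0.05 between them was itself called. RFC1 was lower at -0.31 and -0.58, and RFC5 was not called in any knockout. Among polymerase genes, POLD1, the catalytic subunit of polymerase delta, changed by -0.40 and -0.93, whereas POLE, that of polymerase epsilon, changed by -0.21 and -0.18. The primase partner POLA2 was lower in the IGF2BP2 knockout (-0.38 ± 0.07) and higher in the IGF2BP3 knockout (0.23 ± 0.07), and POLA1 showed the opposite signs (0.11 and -0.52). PRIM1, the catalytic primase subunit, was lower in the IGF2BP1 and IGF2BP2 knockouts (-0.30 and -0.31).

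RPA1, the large subunit of the protein that coats single-stranded DNA (chr17:1829702-1900082, plus strand), had the largest fall of the 41 genes in cytoplasmic RNA of both the IGF2BP1 and the IGF2BP2 knockout. It read 288, 283, 282 and 279 CPM in the control, 171 and 171 without IGF2BP1, 142 and 138 without IGF2BP2 and 221, 219, 309 and 315 without IGF2BP3. The libraries of the first 2 knockouts lay far below the control. Those of the IGF2BP3 knockout fell below it in batches 3 and 4 and above it in batch 5, for which no control was made. The changes were -0.74 ± 0.04, -0.9995 ± 0.04 and -0.35 ± 0.04, and the last call was lost without the batch term. After loss of IGF2BP3 the nuclear value of RPA1 was called in the other direction (0.26, edgeR adjusted p 0.0291) and the total value was not called (-0.11, edgeR adjusted p 0.352). The call of the IGF2BP1 knockout held in every cytoplasmic alternative, with -0.75 to -0.55. In the IGF2BP1 knockout 17 of the 20 genes nearest to RPA1 were also called lower and none higher, with a median of -0.83, close to the value of RPA1 itself. In the IGF2BP2 knockout 7 of the 20 were lower and 6 higher, with a median of 0.05. The edited gene IGF2BP1 also lies on chromosome 17 (chr17:48997412-49055650), as do the members CDC6 and TK1. Of the 20 neighbours of TK1, 10 were called lower and 1 higher in the IGF2BP1 knockout, with a median of -0.29. The part of the neighbouring genes and of the shared chromosome in the RPA1 value was not tested. RPA2, the next subunit, changed by -0.15, 0.11 and -0.18. FEN1, which trims flaps of lagging strand fragments, fell by 0.58 on the log2 scale in the IGF2BP2 knockout and rose by 0.20 in the IGF2BP3 knockout. LIG1, the ligase that seals those fragments, rose by 0.37 in the IGF2BP1 knockout and changed by -0.76 in the IGF2BP3 knockout; its -0.18 in the IGF2BP2 knockout was 0.03 without the batch term.

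RRM1, the large subunit of ribonucleotide reductase (chr11:4094707-4138876, plus strand), separated the knockouts. Its cytoplasmic level was 269, 258, 273 and 267 CPM in the control, 279 and 279 without IGF2BP1, 137 and 141 without IGF2BP2 and 186, 188, 230 and 239 without IGF2BP3. The IGF2BP2 knockout was lowest, the IGF2BP3 knockout lay between it and the control, and the groups did not overlap. The changes were -0.96 ± 0.04 (edgeR adjusted p 1.6e-20) and -0.53 ± 0.04. Of the neighbours of RRM1, 13 of 20 were lower in the IGF2BP2 knockout with a median of -0.61, while 11 of 20 were higher in the IGF2BP3 knockout with a median of 0.48. RRM2, the S phase subunit of the same enzyme, had the opposite order, with -0.26 after loss of IGF2BP2 and -0.82 after loss of IGF2BP3. TK1, thymidine kinase, rose by 0.34 in the IGF2BP3 knockout. TYMS, thymidylate synthase, was called higher in nuclear RNA of the IGF2BP2 knockout (0.58, edgeR adjusted p 2.5e-06). In cytoplasmic RNA it was not called in that knockout (-0.02), was called at -0.11 in the IGF2BP3 knockout, and had the opposite sign in both with upper quartile scaling (0.13 and 0.06).

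E2F1 and E2F2, the transcription factors of this gene group, were higher in the IGF2BP2 and IGF2BP3 knockouts, and CCNE1 was lower. E2F2 (chr1:23506430-23531220, minus strand) read 43.5, 42.1, 42.3 and 41.9 CPM in cytoplasmic RNA of the control, 45.8 and 44.3 without IGF2BP1, 74.5 and 72.3 without IGF2BP2 and 52.5, 53.1, 41.6 and 44.7 without IGF2BP3. The rise in the IGF2BP2 knockout was clear of every control library, while the batch 5 libraries of the IGF2BP3 knockout overlapped the control. The changes were 0.80 ± 0.06 and 0.33 ± 0.06, and the latter call was lost without the batch term. E2F1 read 86.8 to 99.1 CPM in the control, 121 and 116 without IGF2BP2 and 120 to 141 without IGF2BP3, with no overlap (0.28 ± 0.05 and 0.49 ± 0.05). CCNE1, a cyclin E gene, was lower in both knockouts, at 21.6 and 20.2 CPM and at 21.8, 19.3, 29.7 and 31.3 CPM, against 35.0 to 39.8 in the control (-0.75 ± 0.07 and -0.78 ± 0.07). CCNE2, the other cyclin E gene, was called against control in the IGF2BP1 knockout and in neither of the others. It was at 40.7 and 39.5 CPM against 25.7, 28.1, 25.0 and 22.8. Its changes there were 0.57 ± 0.08 in cytoplasmic, 0.59 in nuclear and 0.94 in total RNA, and the cytoplasmic values in the other knockouts were 0.04 and -0.09. Set against the IGF2BP1 knockout it was lower by test in both, at -0.53 ± 0.11 and -0.66 ± 0.11. In total RNA it read 45.9 and 49.2 CPM against 23.4 to 35.9 in the control, and 4 of its 20 neighbours were called higher in the IGF2BP1 knockout, with a median of 0.03.

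**Figure D3:**
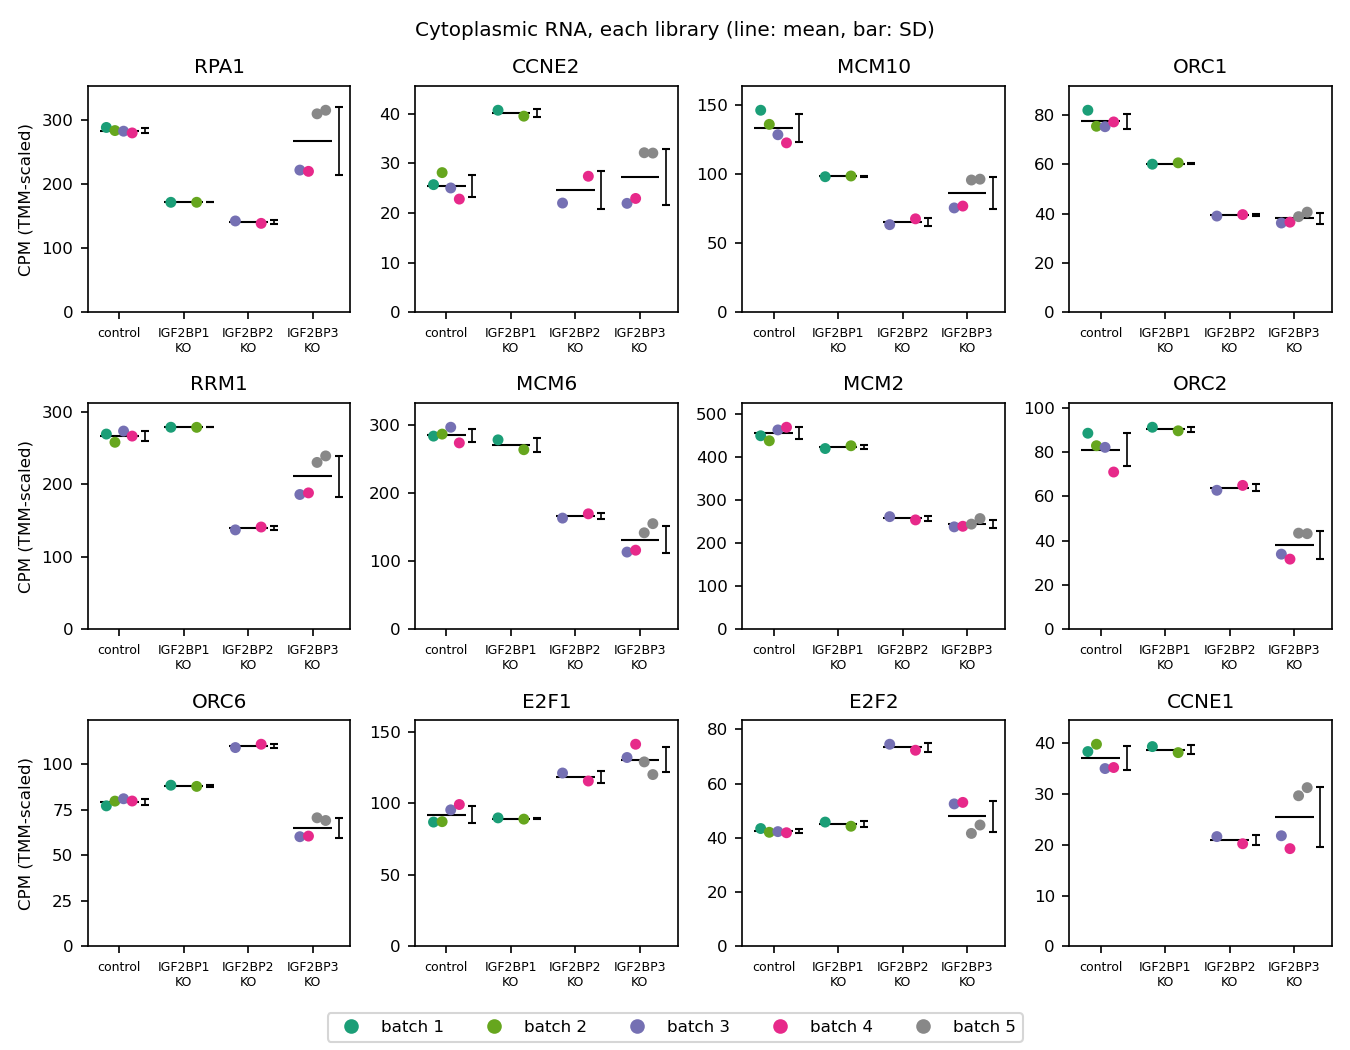
Level of 12 genes in each cytoplasmic library, as TMM-scaled CPM, coloured by labelled batch, with the mean (line) and SD (bar) of each group. ORC1, MCM2 and MCM6 are low in the IGF2BP2 and IGF2BP3 knockouts, RPA1 is low in the IGF2BP1 and IGF2BP2 knockouts, and the batch 5 libraries of the IGF2BP3 knockout stand above those of batches 3 and 4 for RPA1, RRM1 and CCNE1.

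The IGF2BP2 and IGF2BP3 knockouts shared batches, so their difference does not depend on the control. In cytoplasmic RNA 20 of the 41 genes were lower and 12 higher in the IGF2BP3 knockout than in the IGF2BP2 knockout, where 62.7% of all genes were called. The largest differences were ORC2 at -0.96 ± 0.06 and ORC6 at -0.87 ± 0.04, both called with the same sign in total RNA (-0.92 and -0.71) and nuclear RNA (-1.07 and -0.88). FEN1 stood at the other end with 0.79 ± 0.04, followed by RPA1 at 0.65 ± 0.04 and POLA2 at 0.61 ± 0.06. Some partners within a complex differed in opposite directions, RRM1 by 0.43 and RRM2 by -0.56, and POLA2 by 0.61 and POLA1 by -0.63. The loading factors CDC6 and CDT1 did so as well, by 0.37 and -0.63. Other partners, such as ORC2 and ORC6, differed in the same direction. In total RNA 16 genes were lower and 9 higher, and in nuclear RNA 15 were lower and 10 higher, where 43.3% and 48.2% of all genes were called. The 25 calls in total RNA went to 13 and 14 without IGF2BP2 knockout replicate 1 and replicate 2, and to 16 and 14 without IGF2BP3 knockout replicate 1 and replicate 2. In cytoplasmic RNA the IGF2BP2 and IGF2BP3 knockouts were also set against the IGF2BP1 knockout through the shared control. Of the 41 genes 26 were lower and 6 higher in the IGF2BP2 knockout, and 30 lower and 6 higher in the IGF2BP3 knockout, where 48.4% and 51.3% of all genes were called. With upper quartile scaling these were 21 lower and 11 higher, and 22 lower and 9 higher.

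**Figure D4:**
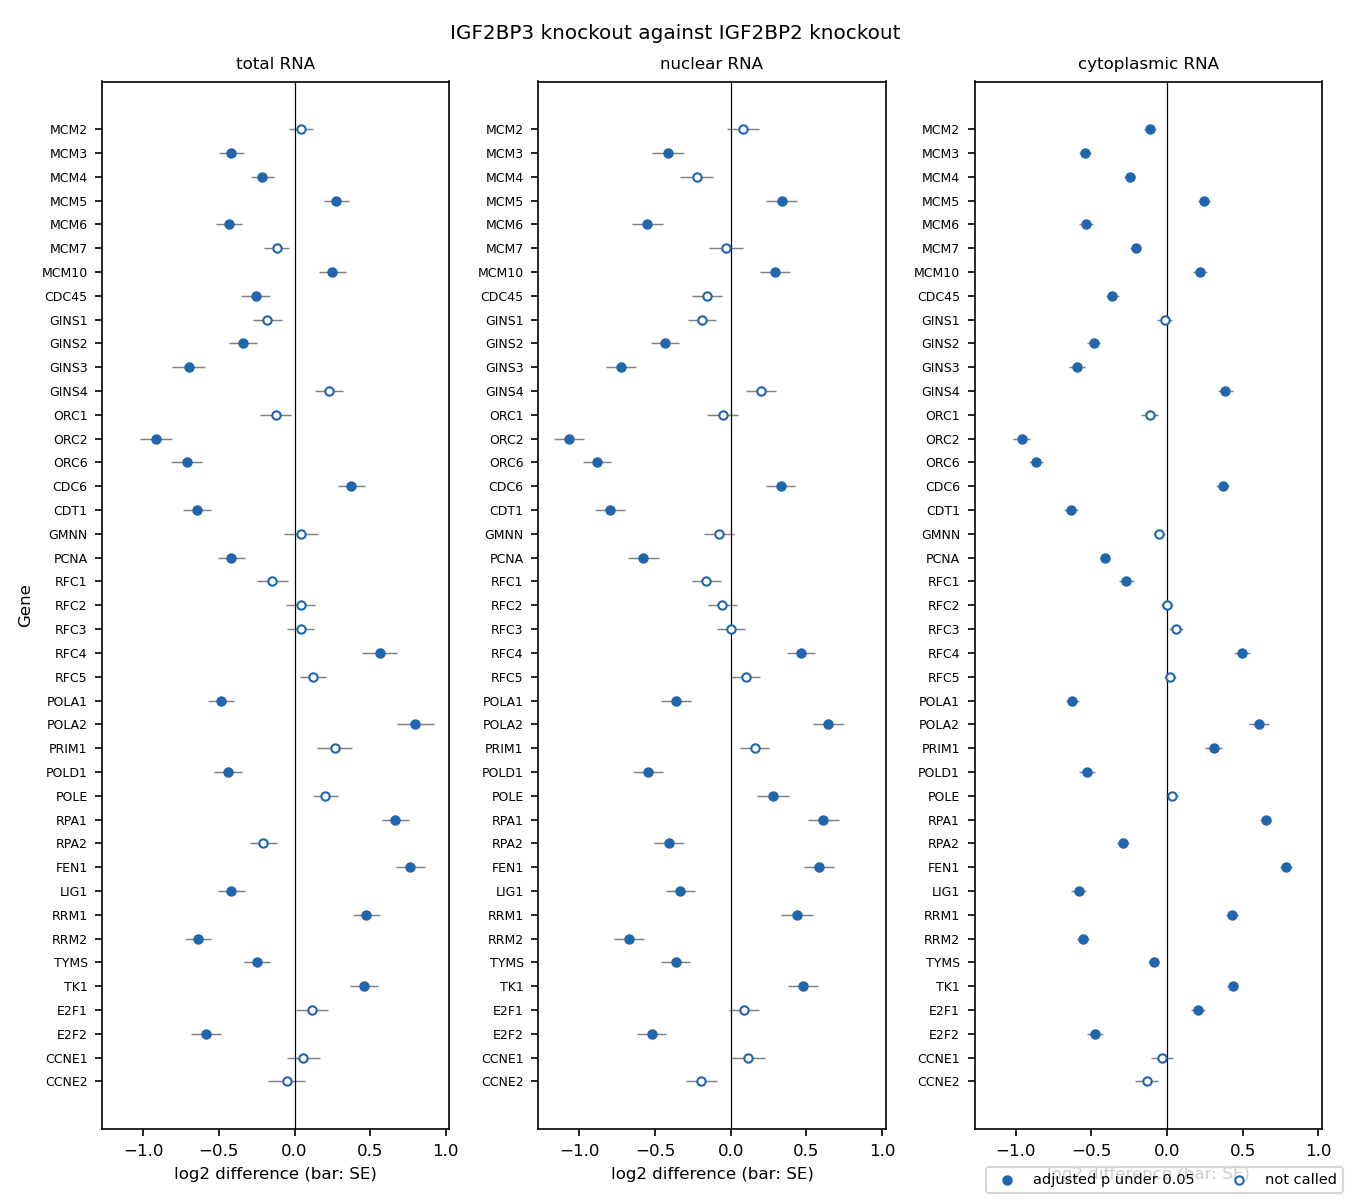
Log2 difference between the IGF2BP3 and the IGF2BP2 knockout for each gene, with its SE, in total, nuclear and cytoplasmic RNA; filled points have an adjusted p under 0.05. ORC2 and ORC6 lie far to the left and FEN1, RPA1 and POLA2 to the right in every panel.

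For part of the genes the change differed between nuclear and cytoplasmic RNA. The nuclear to cytoplasmic ratio, tested as an interaction of fraction and knockout, was called higher for 14 genes and lower for 1 in the IGF2BP2 knockout, where 18% of all genes were called, 8.68% higher and 9.35% lower. A higher ratio was not always a larger fall in the cytoplasm. PCNA (0.62 nuclear, 0.26 cytoplasmic) and POLA1 (0.47 and 0.11) were higher in both fractions of that knockout. TYMS (0.58 and -0.02) and CDT1 (0.35 and -0.12) were called higher in its nuclear RNA. In the IGF2BP3 knockout 11 were higher and 1 lower, where 10.2% of all genes were called, 4.1% higher and 6.06% lower. RRM1 changed most in the IGF2BP2 knockout (0.62 ± 0.11, edgeR adjusted p 1.5e-04), with RPA1 at 0.61 ± 0.10. In nuclear RNA RRM1 read 342, 320, 285 and 299 CPM in the control, 241 and 233 without IGF2BP2 and 318 and 324 without IGF2BP3, which lay within the control range. RPA1 read 360, 328, 246 and 249 CPM in nuclear RNA of the control, 193 and 196 without IGF2BP2 and 291 and 303 without IGF2BP3. Its nuclear control libraries of batches 1 and 2 stood above those of batches 3 and 4. MCM2 changed most in the IGF2BP3 knockout (0.63 ± 0.10, edgeR adjusted p 1.6e-04), with RRM1 at 0.61 ± 0.10. MCM2 read 584, 540, 502 and 495 CPM in nuclear RNA of the control, 380 and 400 without IGF2BP2 and 414 and 410 without IGF2BP3, so both knockouts lay below every control library there too. Of the MCM ring genes, MCM2, MCM3, MCM4 and MCM6 were called in both and MCM7 in the IGF2BP3 knockout. ORC6 went the other way in both (-0.31 and -0.35), and none of the 4 E2F and cyclin E genes was called. In the IGF2BP1 knockout none of the 41 was called with edgeR, where 2.99% of all genes were called, 1.9% higher and 1.09% lower. At an unadjusted p under 0.05 there were 6 (CDT1, GMNN, PCNA, RFC2, POLE and LIG1), and DESeq2 called 1. Nuclear replicate 1 of the IGF2BP1 knockout was the library also deposited as total RNA, and the count changed when it was left out.

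Other values of the fractions moved with these knockouts. The nuclear RNAs MALAT1, NEAT1 and KCNQ1OT1 summed to 128 to 150 CPM in cytoplasmic RNA of the control, to 636 and 663 in the IGF2BP2 knockout, to 785 and 761 in replicates 1 and 2 of the IGF2BP3 knockout and to 317 and 273 in its batch 5 libraries. In nuclear RNA they summed to 262 to 372 in the control, 558 and 511 without IGF2BP2 and 974 and 1123 without IGF2BP3. Their sums were also higher in total RNA, at 249 to 305 in the control, 768 to 793 without IGF2BP2 and 1167 to 1424 without IGF2BP3. All 3 had a lower nuclear to cytoplasmic ratio in both knockouts, with medians of -1.76 and -1.24, the opposite sign to most called members. Mitochondrial RNA had a higher ratio in the IGF2BP3 knockout for 8 of 8 genes, with a median of 0.90. The part of these differences between the fractions in the members' ratios was not tested. The 15 and 12 called ratios were each 4, all higher, without the batch term. Without 1 library the IGF2BP2 count went to 7 without nuclear control replicate 3 or 4 or nuclear IGF2BP2 knockout replicate 2. It went to 6 without cytoplasmic control replicate 3 or 4 or either cytoplasmic IGF2BP2 knockout library. The IGF2BP3 count went to 6 without nuclear or cytoplasmic control replicate 3 or 4 or without cytoplasmic IGF2BP3 knockout replicate 1 or 2, and to 19 without either nuclear IGF2BP1 knockout library. The IGF2BP1 count of 0 went to 8 without nuclear control replicate 1, to 6 without nuclear IGF2BP1 knockout replicate 1, and to 1 without nuclear control replicate 2 or without any of the other 5 nuclear knockout libraries.

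**Figure D5:**
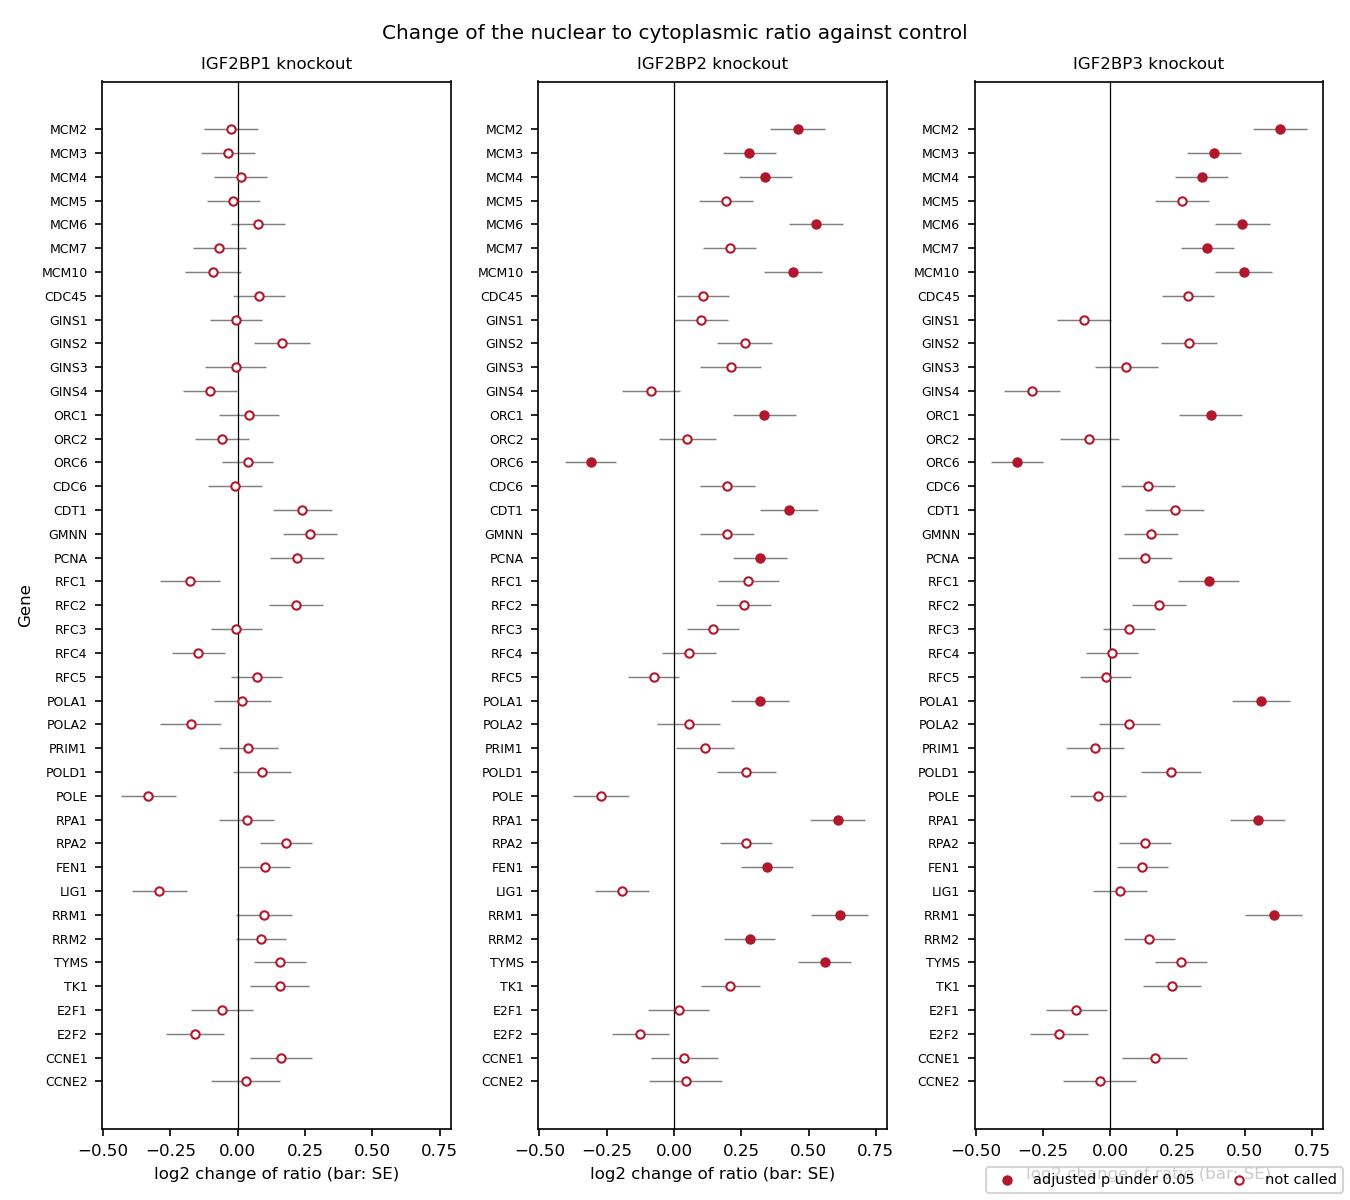
Change of the nuclear to cytoplasmic ratio of each gene against control, on the log2 scale with its SE, for each knockout; filled points have an adjusted p under 0.05. Of the filled points, 14 lie right of 0 in the IGF2BP2 panel and 11 in the IGF2BP3 panel, and ORC6 is to the left in both.

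Further genes of the same pathways, which are not among the 41, were counted in cytoplasmic RNA. Of all genes tested there, 33.2% were called lower and 30.9% higher in the IGF2BP2 knockout. In the IGF2BP3 knockout 33.2% were lower and 31.5% higher. Of 38 other replication genes, 26 were lower and 5 higher in the IGF2BP2 knockout (median -0.39) and 30 lower and 4 higher in the IGF2BP3 knockout (median -0.41). RNASEH2A, the catalytic subunit of the nuclease that removes ribonucleotides from DNA, changed by -1.35 and -1.12 in these knockouts. DNA2, a nuclease and helicase of lagging strand flaps, changed by -0.92 and -0.74, and DNMT1, the maintenance DNA methyltransferase, by -0.52 and -1.08. Of 30 other genes of nucleotide synthesis, 23 were lower and 3 higher (median -0.41) and 22 lower and 5 higher (median -0.38). CAD, which begins pyrimidine synthesis, changed by -0.72 and -1.41 in the IGF2BP2 and IGF2BP3 knockouts. In the same order ATIC, which completes purine synthesis, changed by -0.52 and -1.64. IMPDH1, of guanine nucleotide synthesis, changed by -1.19 and -1.20, and TK2, the mitochondrial thymidine kinase, by 1.18 and 0.21. Of 19 checkpoint and repair genes 13 were lower in each, with 2 and 1 higher. ATR, the replication stress kinase, changed by -1.05 and -0.92, and MSH6, of mismatch repair, by -0.68 and -1.12.

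Genes upstream of E2F and genes of mitosis were counted in the same way, with the same shares over all genes. Of 23 other genes of the E2F and RB step, 10 were lower and 10 higher in the IGF2BP2 knockout (median -0.05) and 11 lower and 7 higher in the IGF2BP3 knockout (median -0.10). CDKN1A, the inhibitor p21 of cyclin-dependent kinases, rose by 1.70 and 1.64 in cytoplasmic RNA and was called higher in every RNA kind of both. CDKN1B rose by 0.86 in the IGF2BP2 and by 1.07 in the IGF2BP3 knockout, and CDKN1C by 0.81 and 1.77. Of 28 mitotic genes 19 were lower and 4 higher (median -0.29) and 17 lower and 3 higher (median -0.18). In the IGF2BP2 and IGF2BP3 knockouts MKI67 was at -0.999 and -0.54 and CCNB1 at -0.69 and -0.22. BUB1 was at -0.65 and -1.03 and PLK1 at -0.48 and -0.70. In the IGF2BP1 knockout the other replication genes had 13 lower and 10 higher and the mitotic genes 5 lower and 10 higher. That knockout had 21.9% of all genes called lower and 22.5% higher. Its largest changes in these lists included PFAS (-1.14) and SHMT1 (-1.003), enzymes of purine and folate metabolism, and the mitotic kinase gene AURKB (-0.93). These lie on chromosome 17 like RPA1 and the edited gene IGF2BP1. Of the 20 genes nearest to each, 17, 14 and 16 were also called lower, with medians of -0.89, -0.82 and -0.89. ASF1B, a histone chaperone, rose by 0.33, CDKN1B by 0.75 and MYBL2 by 0.37, while TICRR, an initiation factor, changed by -0.29, CENPE by -0.35 and BLM by -0.25. Of 20 neighbours of TICRR 9 were called lower and 1 higher (median -0.30), and of BLM 9 lower and 2 higher (median -0.38). Those of CENPE had 2 lower and 6 higher (median 0.10). PFAS, SHMT1 and AURKB changed by -0.97, -0.74 and -0.12 in the IGF2BP2 knockout and by -1.12, -0.36 and 0.01 in the IGF2BP3 knockout.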

How the data were processed

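Poly(A) RNA of total, nuclear and cytoplasmic preparations was sequenced as paired reads of 50 bases from stranded libraries, per the labels' protocols. The authors deposited whole-number read counts per gene and FPKM in 3 tables. The submitters' processing notes name STAR, featureCounts, DESeq2 1.44.0 and GRCh38 with no roles, and the strand setting of the counting is not given in the sources used here, so overlapping genes cannot be separated. The deposited FPKM divided by the genomic span of each gene: at least 99.9893% of genes with over 200 counts came within 1% of it in every library once the implied lengths were divided by a factor per library (0.92 to 1.12). Levels between genes therefore use counts per exon kilobase of GENCODE 29. Of the identifiers, 20403 had no symbol (0.349% to 0.713% of the counts of a library) and stayed in the tests by identifier.

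Counts were fitted with edgeR 4.0.16 (R 4.3.3, TMM scaling, filterByExpr, quasi-likelihood test, labelled batch and genotype as terms), 1 fit per RNA kind and 1 of both fractions for the ratio, with Benjamini-Hochberg adjustment over all genes and a threshold of 0.05. Batch is taken from the labels, where replicate numbers follow it. Deviations of same-batch libraries from their group means correlated from -0.25 to 0.19 in total, -0.26 to 0.18 in nuclear and -0.05 to 0.36 in cytoplasmic RNA. Those of libraries from different batches correlated from -0.23 to 0.25, -0.33 to 0.33 and -0.38 to 0.37. In groups of 2 libraries the deviations mirror each other, so these ranges cannot show whether the labelled batch matters. The tests covered 18745, 18732 and 18212 genes in total, nuclear and cytoplasmic RNA. The members and gene lists were chosen with earlier results of these data known. Values per library are given for the 4 members per knockout with the largest cytoplasmic change among those called with 1 sign in all RNA kinds, for the 2 largest differences between the IGF2BP3 and IGF2BP2 knockouts and for the 2 largest ratio changes per knockout; library values of E2F1, E2F2, CCNE1 and PCNA were added after they were seen. From each further list up to 2 genes per knockout were named by the same measure. Alternatives were RLE and upper quartile scaling, DESeq2 1.42.0, limma 3.58.1 on log2(FPKM + 1) and log2(FPKM + 0.1), other filters, no batch term, only the batches of a knockout and leaving out each library. A limma fit on counts per exon kilobase was added after seeing the data. The edgeR script was tested on simulated data.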

Additional observations from a re-analysis of the deposited data

Results flagged for a closer look

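Of 164 groups of 4 libraries, 2 held a library far from the others, where chance gives about 1 in 20. RFC3 in nuclear RNA read 143 CPM in control replicate 1 and 156 to 158 in the other control libraries. POLD1 in cytoplasmic RNA read 148 CPM in control replicate 4 and 123 to 125 in the others.

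The change in nuclear RNA differed from that in cytoplasmic RNA, by the edgeR interaction test, for 15 members in the IGF2BP2 knockout. The log2 difference of the changes was 0.62 for RRM1, 0.61 for RPA1, 0.56 for TYMS, 0.53 for MCM6, 0.46 for MCM2, 0.44 for MCM10 and 0.43 for CDT1. It was 0.35 for FEN1, 0.34 for MCM4, 0.33 for ORC1, 0.32 for PCNA, 0.32 for POLA1, 0.28 for MCM3, 0.28 for RRM2 and -0.31 for ORC6. In the IGF2BP3 knockout it differed for 12 members, with 0.63 for MCM2, 0.61 for RRM1, 0.56 for POLA1, 0.55 for RPA1, 0.50 for MCM10 and 0.49 for MCM6. It was 0.39 for MCM3, 0.37 for ORC1, 0.37 for RFC1, 0.36 for MCM7, 0.34 for MCM4 and -0.35 for ORC6.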

How the results depend on the processing

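For single members, 15132 values stayed on their side of the threshold across the alternatives, 971 lost the call, 360 gained one and 19 that were called in at least 1 of the fits changed sign. Of the first, 485 were called in neither fit and had the opposite sign, 66 of them in total, 112 in nuclear and 109 in cytoplasmic RNA and 198 in the ratios and fractions. Calls kept under every alternative numbered 0, 14 and 17 in total, 0, 8 and 9 in nuclear and 9, 26 and 27 in cytoplasmic RNA of the IGF2BP1, IGF2BP2 and IGF2BP3 knockouts, and 0, 4 and 4 for the ratio. The cause of each change below was not tested.

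Counts of called members that moved by over 1.5 times were these. In total RNA of the IGF2BP1 knockout 12 calls became 5 with log2(FPKM + 1), 5 with log2(FPKM + 0.1), 0 with all genes above 0 and 3 with only its own batches; in nuclear RNA 6 became 3, 3 and 0 under the first 3 of these. With all genes above 0 in limma, nuclear calls became 9 in the IGF2BP2 and 10 in the IGF2BP3 knockout, and those between these knockouts 16 in total and 12 in nuclear RNA. Without the batch term, the replicate block of this design, cytoplasmic calls of the IGF2BP1 knockout became 10 and ratio calls 1, 4 and 4 in the 3 knockouts; the IGF2BP1 ratio also had 1 call with RLE scaling, DESeq2 and no filter. Without the block no other count of called members moved by over 1.5 times.

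Leaving out 1 library gave 5 to 22, 15 to 34 and 17 to 31 calls in total RNA, 5 to 8, 13 to 27 and 15 to 25 in nuclear RNA and 14 to 23, 32 to 36 and 34 to 36 in cytoplasmic RNA of the IGF2BP1, IGF2BP2 and IGF2BP3 knockouts. Between the IGF2BP3 and IGF2BP2 knockouts it gave 13 to 31, 21 to 28 and 30 to 32. Against the IGF2BP1 knockout it gave 30 to 32 for IGF2BP2 and 30 to 36 for IGF2BP3. For the ratio it gave 0 to 8, 6 to 22 and 6 to 19, and 19 to 26 between the fractions of the control.

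The 19 changed signs of called values were all in cytoplasmic RNA. With upper quartile scaling the IGF2BP2 knockout had MCM3 at 0.0023, CDT1 at 0.0276, TYMS at 0.13 and TK1 at 0.0551. The IGF2BP3 knockout had CDC6 at 0.0587, PCNA at 0.0176, RFC5 at 0.12, PRIM1 at 0.16 and TYMS at 0.0606, and against the IGF2BP1 knockout MCM5 at 0.0083, RPA2 at 0.14 and TYMS at 0.00018. Without the block the IGF2BP2 knockout had CDT1 at 0.0458 and LIG1 at 0.0254, and the IGF2BP3 knockout CDC6 at 0.0431 and TYMS at 0.11. TYMS was at 0.0713 against the IGF2BP2 knockout and at 0.11 against the IGF2BP1 knockout, with RFC4 at 0.0197 there. A fit of only the batches of the knockout could not be made against the IGF2BP1 knockout.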
